A study of Mus musculus with 17 samples.

Results

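The antioxidant and NRF2 target genes were followed in pancreatic islets of mice with an altered *Pax4*, a transcription factor of the endocrine pancreas. The 40 genes were listed by their known roles, with no measured value in the rule: sensors and regulators of the oxidative stress response, and the enzymes of the glutathione, thioredoxin, peroxiredoxin, superoxide dismutase, quinone, heme and iron systems. These genes were chosen with earlier results of these data known. They made up 41 of 78239 gene identifiers of the *Pax4* R192H table and 41 of 73212 of the βiKO table, since *Nnt* carries 2 overlapping identifiers, and all 41 had enough counts to be tested in both.

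Bulk RNA-seq was available as 17 samples of islets isolated from male mice, those of the R192H set of C57BL6/N background; the samples are called mice here, although the sources used do not say whether a sample pooled several animals. The *Pax4* R192H set held 12 mice, 3 in each of 4 groups: wildtype and homozygous *Pax4* R192H knock-in littermates (*Pax4* HH in the labels), each on standard chow diet (SCD) at 12 weeks of age or after 4 weeks of high-fat diet (HFD) at 16 weeks of age. The HFD mice were therefore also older than the SCD mice, and diet and age cannot be told apart. The βiKO set held 3 *Pax4* floxed/floxed;Pdx1-CreERT2 mice, in which a tamoxifen-induced Cre driven by the *Pdx1* promoter deletes *Pax4*, and 2 floxed control mice without Cre, all given tamoxifen and all at 20 weeks of age after 8 weeks of HFD; the effects of Cre and of the deletion cannot be told apart there. Because wildtype and R192H mice were compared within each diet, and βiKO with Control on HFD, the 40 genes could be followed across genotype, diet and a deletion of *Pax4*.

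NRF2, encoded by *Nfe2l2*, is a transcription factor that KEAP1 holds at low levels by marking it for degradation. Oxidants and electrophiles modify KEAP1, NRF2 then accumulates, and it induces genes for glutathione synthesis, thioredoxin cycling, quinone reduction and iron storage through antioxidant response elements. Beta cells are known for low catalase and glutathione peroxidase activity, and they rely largely on peroxiredoxins and thioredoxin to remove hydrogen peroxide.

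Depth was 24268157 to 42679645 counts per mouse in the R192H set and 28618835 to 31887537 in the βiKO set. The 2 genes with the most counts of the R192H set held 36.22% to 53.29% of the counts of its mice. In the βiKO set the same genes held 5.4% to 6.49%. TMM scaling factors were 0.692 to 0.823 in R192H and 0.89 to 1.11 in wildtype mice on HFD, and 1.05 to 1.3 on SCD. Islet hormone genes were high in every mouse (*Ins2* at 14500 to 46000 CPM in the R192H set and 59600 to 69200 CPM in the βiKO set; CPM is the count per 1000000 counts of the TMM-scaled library). *Pax4* itself was listed at 0 in all 17 mice, so neither genotype could be checked on it. Several libraries stood apart in their content of other cells. The 33 acinar markers, genes of the enzyme-secreting exocrine pancreas, summed to 25900 to 40600 CPM in the wildtype mice on HFD and to 58100 to 147000 CPM in the R192H mice on HFD, with all 33 higher on average in R192H and 9 called higher. Of the βiKO set, 1 control (167000 CPM) and 1 βiKO mouse (133000 CPM) were acinar-rich, against 26700 to 39800 CPM in the other mice. Intestinal transcripts were found in R192H mouse 1 on SCD (*Alpi* at 42.1 CPM) and R192H mouse 1 on HFD (17.9 CPM), with *Alpi* at or below 0.546 CPM in the other 10 mice of that set. In islets in bulk, fewer cells of a type and less RNA per cell cannot be told apart.

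Across genes, levels are compared per kilobase of exon. In wildtype islets on HFD, the ferritin light chain gene *Ftl1* was the highest of the 40 at 777 CPM per kb, followed by *Sod1* at 103 and *Sqstm1* at 82.1 CPM per kb. The extracellular superoxide dismutase gene *Sod3* was the lowest at 0.0824 CPM per kb, and catalase (*Cat*, which breaks down hydrogen peroxide) stood at 1.33 CPM per kb, far below *Gpx1* (54.8), *Prdx2* (44.2) and *Prdx1* (33.6 CPM per kb).

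The binding core of the antioxidant response element, TGACNNNGC, was searched on both strands of the RefSeq promoter windows of these genes (build GRCm38.p6, 250 bases before to 50 bases after each start site). Windows were given for 32 of the 40 genes, and 7 of those 32 (21.9%) held the core in at least 1 window, against 14% of the 27025 genes with a window. By window, 7 of 45 (15.6%) held it, against 12.4% of all 32851. The matches are shown so that the sequence behind this count can be seen beside the values of the same genes below; each line gives 29 bases of the gene's own strand, with the match in capitals and 10 flanking bases on each side. A match to the reverse strand reads GCNNNGTCA in capitals.

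Gclm: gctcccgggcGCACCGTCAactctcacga
Mgst1: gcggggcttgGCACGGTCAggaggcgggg
Nfe2l2: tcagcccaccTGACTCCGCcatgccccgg
Prdx1: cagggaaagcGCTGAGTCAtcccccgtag
Sod1: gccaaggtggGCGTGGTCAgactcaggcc
Srxn1: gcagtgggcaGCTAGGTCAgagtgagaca
Txnrd1: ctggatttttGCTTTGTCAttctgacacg

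The stretch of *Prdx1* lies at chr4:116685456-116685484, that of *Gclm* at chr3:122245413-122245441, that of *Mgst1* at chr6:138140461-138140489 and that of *Sod1* at chr16:90220696-90220724, all of plus-strand genes. Those of *Srxn1* (chr2:152105542-152105570) and *Txnrd1* (chr10:82859104-82859132) are on the plus strand too, and that of *Nfe2l2* (chr2:75704885-75704913) on the minus strand. In *Prdx1* the core overlaps the AP-1 motif TGACTCA, and in *Srxn1* it begins 29 bases into the transcript; the others begin 56 to 240 bases before the start site. None of the 4 genes called between genotypes on HFD, described next, held the core in its window, and no match says only that these letters are not in these 300 bases. The 8 genes without a window were *Gclc*, *Gsr*, *Msra*, *Prdx6*, *Sod3*, *Gsta4*, *Hmox1* and *Nnt*.

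The comparison of R192H with wildtype islets on HFD asks whether the variant alters islet gene expression under metabolic stress. Of the 41 member identifiers, 3 were higher in R192H islets (*Prdx4*, *Gpx2* and *Txn1*) and 1 was lower (*Nqo1*). A gene was called where the adjusted p was under 0.05 and the log2 fold change beyond 0.5 in either direction. Across all 19137 genes tested, 1.46% were called higher and 0.82% lower, against 3 of 41 and 1 of 41 members. The members moved in both directions, with 29 above 0 and 12 below, and their median log2 fold change was 0.18 beside −0.01 for all genes. The 3 R192H mice lay wholly above the 3 wildtype mice for 15 members and wholly below for 6, where 13% and 9.89% of all genes did so. Without both mice carrying intestinal transcripts, which leaves 2 R192H mice, the median member stood at 0.2 and the median gene at 0, and the groups did not overlap for 17 members above and 6 below, beside 19.2% and 13.5% of all genes.

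*Prdx4* encodes a peroxiredoxin of the endoplasmic reticulum, which uses hydrogen peroxide to form disulfide bonds. It measured 16.2, 25.3 and 18.6 CPM in the wildtype mice on HFD and 54.4, 50.1 and 32.9 CPM in the R192H mice on HFD. Every R192H mouse was above every wildtype mouse, with the lowest R192H value in mouse 3. The difference was 1.19 ± 0.20 on the log2 scale (SE, n = 3 and 3, 2.29-fold, adjusted p = 0.00983 by edgeR's quasi-likelihood test). On SCD, both genotypes stood where the wildtype mice on HFD did, at 19.5 to 21.1 CPM in wildtype and 17.5 to 22.8 CPM in R192H.

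*Gpx2* encodes a glutathione peroxidase best known from the epithelium of the gut. Its levels on HFD were 9.09, 14.0 and 9.92 CPM in wildtype mice and 20.6, 20.3 and 33.0 CPM in R192H mice. The groups did not overlap, and the highest value came from R192H mouse 3. *Alpi* was at 17.9 CPM in R192H mouse 1 on HFD and at 0 CPM in mouse 3; the part of intestinal RNA in *Gpx2* was not tested beyond the fits without those mice and with the intestinal covariate, given below. The difference on HFD was 1.17 ± 0.24 (log2, SE, n = 3 and 3, 2.25-fold, adjusted p = 0.0259).

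*Txn1*, the cytosolic thioredoxin that reduces peroxiredoxins and other disulfides, measured 24.7, 32.6 and 27.7 CPM in wildtype and 42.5, 50 and 50.7 CPM in R192H mice on HFD. Again the genotypes did not overlap. It was higher by 0.75 ± 0.16 (log2, SE, n = 3 and 3, 1.69-fold, adjusted p = 0.0286).

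*Nqo1*, a quinone reductase often used as a readout of NRF2 activity, moved the other way. It was at 4.56, 6.93 and 4.82 CPM in wildtype and at 2.00, 2.85 and 2.84 CPM in R192H mice on HFD. All R192H mice on HFD were below the other 9 mice of the set, among which the lowest was a wildtype mouse on HFD. The log2 difference was −1.08 ± 0.23 (SE, n = 3 and 3, adjusted p = 0.0288), which is 0.473 of the wildtype level.

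**Figure D1:**
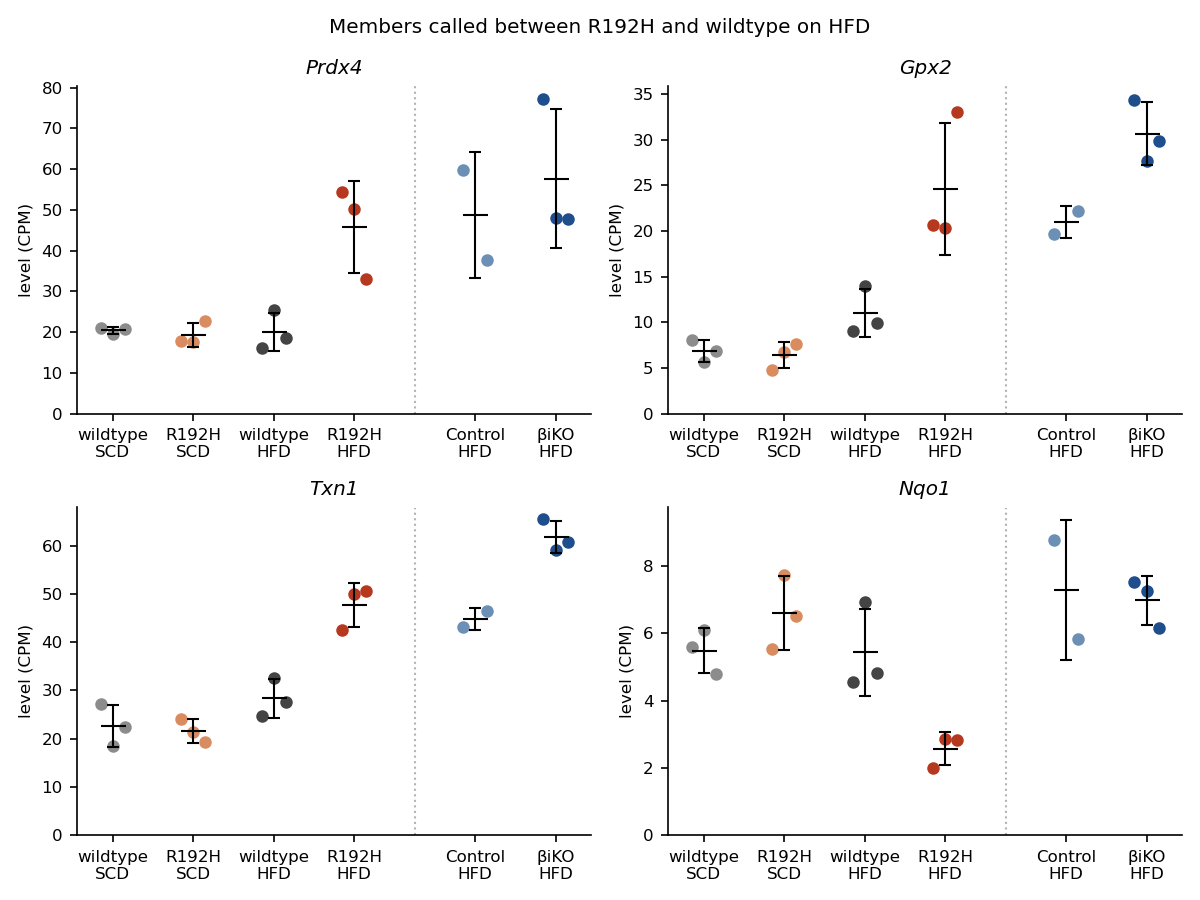
Level (CPM, linear axis from 0) of *Prdx4*, *Gpx2*, *Txn1* and *Nqo1* in each mouse (points), with the mean and SD of each group (black); the dotted line parts the R192H set from the βiKO set, whose tables were normalized separately. The R192H mice on HFD sit at 32.9 to 54.4 CPM for *Prdx4*, above all other mice of their set, and at 2.00 to 2.85 CPM for *Nqo1*, below all of them.

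These 4 calls were sensitive to single mice. The count of members called fell from 4 to 2 without wildtype mouse 1, to 3 without wildtype mouse 2 and to 0 without wildtype mouse 3; it was 2, 0 and 1 without R192H mouse 1, 2 and 3 in turn. The count over all genes moved as well, from 437 to 140, 498 and 93 without the wildtype mice in that order and to 133, 107 and 157 without the R192H mice. Without both mice that carried intestinal transcripts no member and 79 of all genes were called, with log2 differences of 1.06 for *Prdx4*, 1.3 for *Gpx2*, 0.85 for *Txn1* and −0.91 for *Nqo1* and adjusted p-values of 0.0621, 0.0522, 0.077 and 0.159. The directions stayed the same throughout, at 0.72 to 1.39 for *Prdx4*, 0.90 to 1.38 for *Gpx2*, 0.66 to 0.87 for *Txn1* and −1.19 to −0.87 for *Nqo1* over 17 alternatives each.

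Marker RNA of several cell types moved with genotype on HFD, with summed levels that did not overlap between the groups. Besides the acinar markers, the 8 duct markers summed to 153 to 186 CPM in wildtype and 215 to 226 CPM in R192H mice, with 4 of 8 wholly higher and none called. The 9 beta cell markers summed to 64800 to 93200 CPM in wildtype and 99100 to 110000 CPM in R192H mice, a sum made up mostly of hormone genes, while 4 of the 9 were wholly lower, 1 was wholly higher and 1 was called lower. The part of duct and beta cell RNA in the members was not tested. With the mean level of the acinar markers in each mouse as a covariate no member was called, and no gene of the 19137 was. The log2 difference of *Prdx4* then was 0.72 (adjusted p = 0.707), that of *Gpx2* 1.15 (0.659), that of *Txn1* 0.85 (0.562) and that of *Nqo1* −0.87 (0.728). The covariate, as mean log2 CPM, was 7.49 to 8.21 in the wildtype and 8.74 to 10.03 in the R192H mice on HFD. It did not overlap between the genotypes, so this fit cannot separate acinar RNA from genotype. Within the R192H mice on HFD, the mouse with 147000 CPM of acinar markers had the highest *Prdx4* (54.4 CPM), while its *Txn1* (42.5 CPM) was the lowest of the group and its *Gpx2* (20.6 CPM) was near that of mouse 2 (20.3 CPM). Mice 2 and 3, with 58900 and 58100 CPM of acinar markers, had 50.1 and 32.9 CPM of *Prdx4*. The mouse with the most acinar marker RNA also had the highest *Prdx4* in wildtype on HFD (25.3 CPM) and in R192H on SCD (22.8 CPM). In wildtype on SCD it did not (20.8 CPM, against 21.1 CPM in mouse 1). In the βiKO set, the acinar-rich control had more *Prdx4* (59.7 against 37.8 CPM) and less *Gpx2* and *Txn1* than the other control (19.7 against 22.2 CPM and 43.2 against 46.4 CPM). The acinar-rich βiKO mouse had the highest *Prdx4*, *Gpx2* and *Txn1* of its group (77.3, 34.4 and 65.6 CPM). *Nqo1* was lowest (2.00 CPM) in the acinar-rich R192H mouse and highest (8.77 CPM) in the acinar-rich control. The part of acinar RNA in the 4 calls was not tested beyond this. With the mean level of the intestinal markers as a covariate, *Gpx2* (adjusted p = 0.0133) and *Prdx4* (0.0395) were called, and *Txn1* (0.0775) and *Nqo1* (0.0817) were not. The count over all genes fell from 437 to 169 with this covariate.

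**Figure D2:**
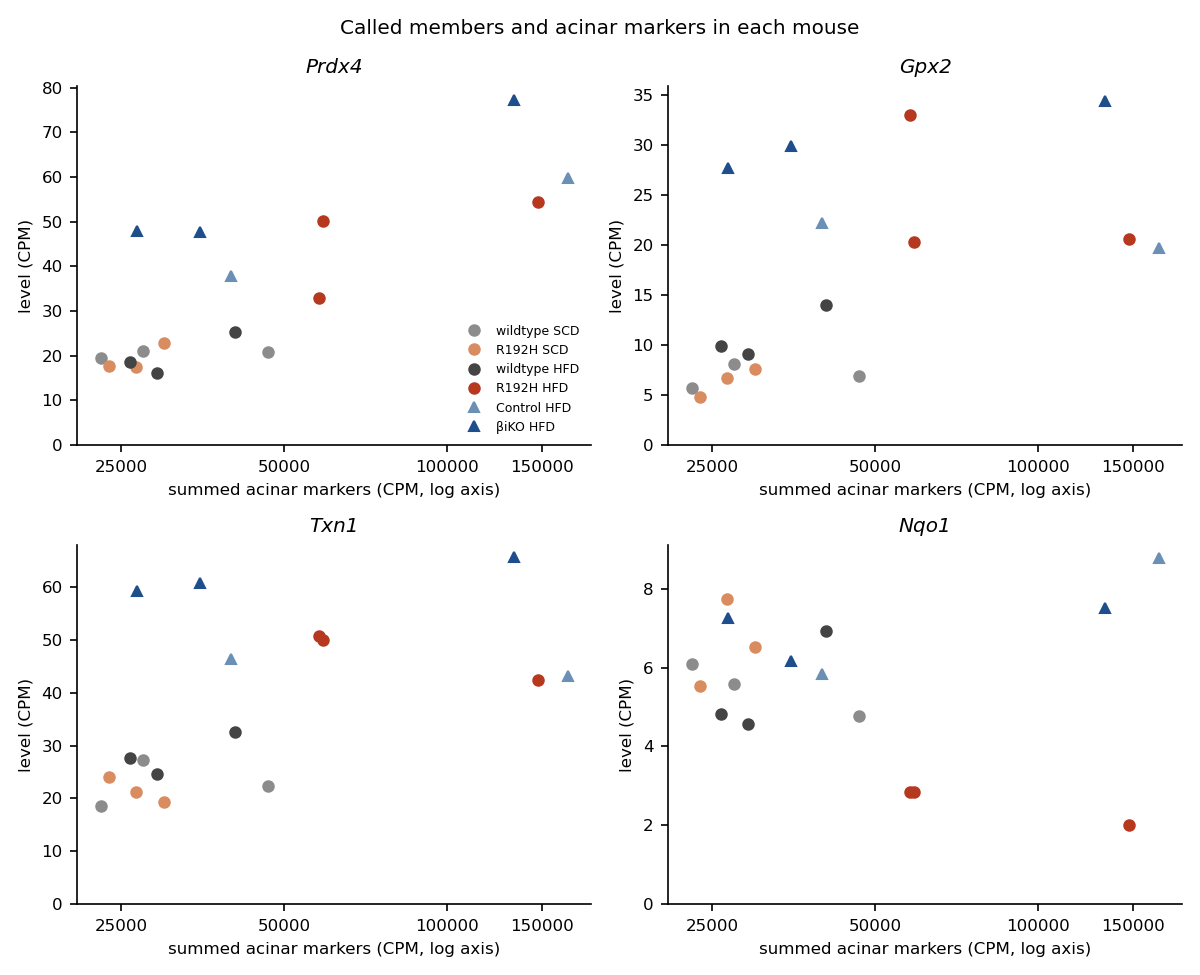
Level of the 4 called members (CPM, linear axis from 0) against the summed level of 33 acinar markers (CPM, log axis) in each mouse; circles are the R192H set and triangles the βiKO set. The R192H mice on HFD (red circles) lie at 58100 CPM of acinar markers or more, to the right of every other mouse of their set.

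**Figure D3:**
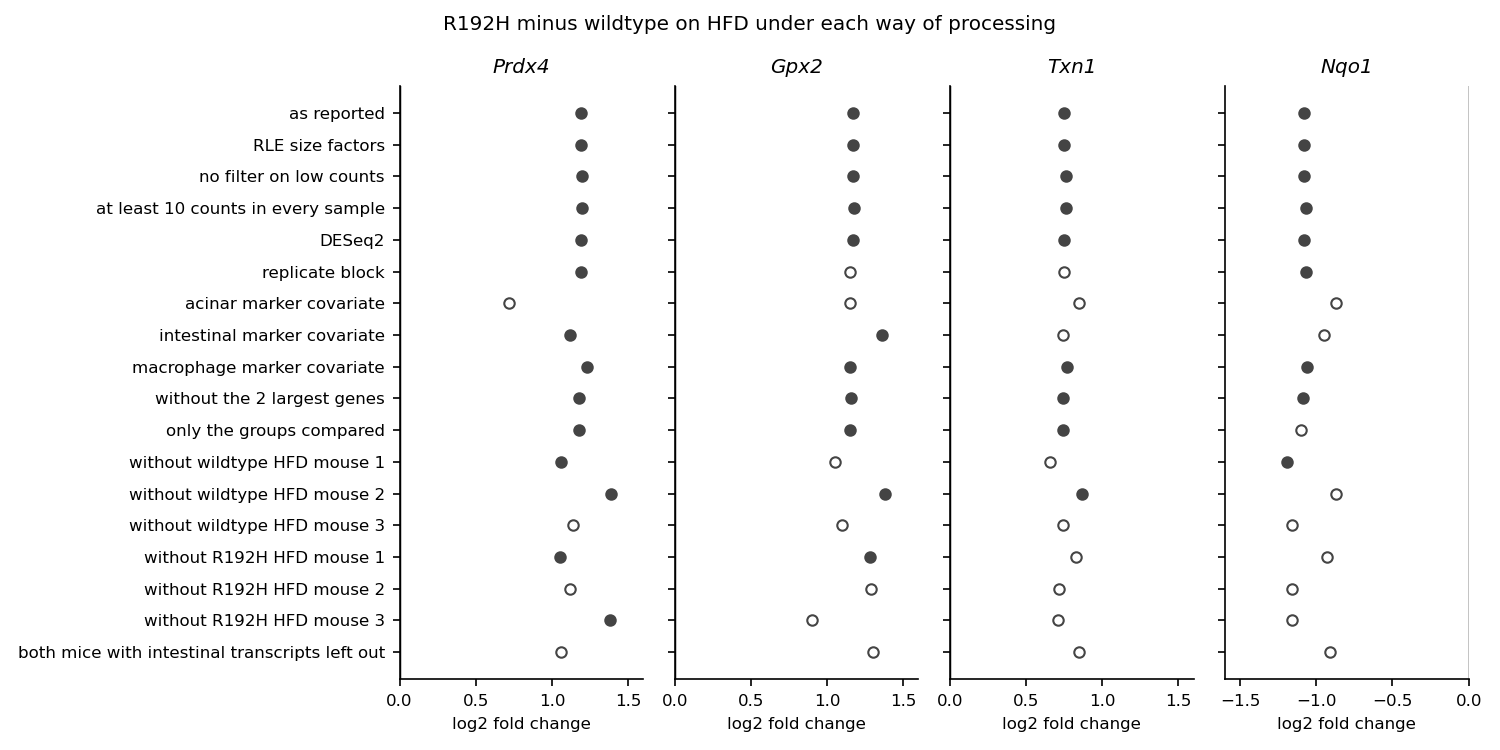
Log2 fold change of the 4 called members, R192H minus wildtype on HFD, as reported and under each alternative; filled points were called and open points were not. *Nqo1* lies between −1.19 and −0.87 and *Txn1* between 0.66 and 0.87, with *Prdx4* lowest, at 0.72, when acinar markers are a covariate.

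The other members on HFD are taken by role. Of the regulators none was called. *Nfe2l2* was at 13.5, 15.1 and 14.6 CPM in wildtype and at 10.3, 12.2 and 11.2 CPM in R192H mice; the groups did not overlap, and the log2 difference of −0.36 ± 0.14 did not pass (SE, n = 3 and 3, adjusted p = 0.208). *Nfe2l1*, a relative of NRF2 that governs proteasome genes, had −0.26 (adjusted p = 0.269), *Keap1* 0.17 (0.655) and *Sqstm1*, whose protein p62 competes with NRF2 for KEAP1, 0.25 (0.366).

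The genes of glutathione synthesis and recycling had small differences. *Gclm*, the modifier subunit of the enzyme that makes the glutathione precursor, measured 29.2, 24.2 and 24.7 CPM in wildtype and 20.8, 23.2 and 20.7 CPM in R192H mice. The R192H mice were lower without overlap, by a log2 difference of −0.27 ± 0.14 that did not pass (SE, n = 3 and 3, adjusted p = 0.38). *Gclc*, the catalytic subunit, and glutathione reductase (*Gsr*) had 0.16 and −0.21.

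Among the peroxide-removing enzymes, all 6 glutathione peroxidases and all 6 peroxiredoxins had a positive difference, with medians of 0.54 and 0.31, of which edgeR called *Gpx2* and *Prdx4*. DESeq2 called these and *Gpx3* (adjusted p = 0.0473); it called 4 members higher and 1 lower in all, beside 3.62% and 1.78% of all genes. *Prdx1* passed the adjusted p of DESeq2 (0.0406) but not the fold threshold. *Prdx1* (0.47, adjusted p = 0.101), *Gpx3* (0.73, 0.139) and *Gpx1* (0.52, 0.167) came closest among the rest with edgeR. In the thioredoxin system, 5 of 7 were above 0. *Srxn1*, which repairs over-oxidized peroxiredoxins, had 0.42 (adjusted p = 0.211) and mitochondrial *Txn2* had 0.43 (0.292), while thioredoxin reductase 1 (*Txnrd1*) had the lowest value of the class at −0.22.

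*Sod1*, the cytosolic superoxide dismutase, was at 58.2, 69.1 and 70.5 CPM in wildtype and at 84.3, 90.6 and 83.4 CPM in R192H mice on HFD. The groups stood apart by 0.39 ± 0.14 (log2, SE, n = 3 and 3), and the adjusted p of 0.176 did not pass. The highest log2 difference of the members, 1.82 for *Sod3*, rested on low levels (0.239 to 0.347 CPM in wildtype and 0.42 to 2.19 CPM in R192H mice) and did not pass either (adjusted p = 0.292); it was 0.83 without R192H mouse 3 and 3.44 with the acinar covariate. The glutathione transferases ranged from −0.43 (*Gstm1*) to 0.38, and the ferritin genes *Ftl1* and *Fth1* had −0.41 (adjusted p = 0.239) and 0.02. Heme oxygenase 1 (*Hmox1*), a further classical NRF2 target, had −0.60 (0.599). *Gstp1* and *Gstm1* have near-identical neighbours in their gene families, so the division of their reads is uncertain. Of the members without a log2 difference above, *Glrx*, *Msra*, *Txnrd2*, *Gpx4*, *Gpx7*, *Gpx8*, *Prdx2*, *Prdx3*, *Prdx5*, *Prdx6*, *Sod2*, *Cat*, *Gsta4*, *Gstp1*, *Mgst1* and *Mgst3*, none was called and the log2 differences on HFD lay between −0.06 (*Txnrd2*) and 0.55 (*Gpx8*).

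*Nnt*, the mitochondrial transhydrogenase that supplies NADPH, has 2 overlapping identifiers in the tables, and reads may be split between them. The identifier with the lower p measured 43.9, 47.2 and 41.1 CPM in wildtype and 58.2, 45.4 and 59.7 CPM in R192H mice on HFD, which overlapped (log2 difference 0.30, adjusted p = 0.364). Summed over both identifiers, *Nnt* was detected in all mice, at 45.5 to 79.4 CPM in the R192H set and 36.7 to 43.9 CPM in the βiKO set.

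On SCD, where the same comparison asks whether the genotypes differ before the diet, no member was called by edgeR or by DESeq2 (0% and 0.104% of all genes). At an unadjusted p under 0.05 there was 1 member, *Hmox1*, and 3.29% of all genes. *Hmox1* was at 9.27, 1.98 and 2.63 CPM in wildtype and at 2.47, 2.05 and 1.53 CPM in R192H mice (log2 difference −1.18 ± 0.48, SE, n = 3 and 3, adjusted p = 1). Wildtype mouse 1 alone was high, and without it the log2 difference was −0.18. It also had the highest summed erythroid markers of the SCD mice (184 CPM against 23.3 to 39.4 CPM) and the highest macrophage markers (154 against 67.3 to 112 CPM) and lymphocyte markers (40.2 against 4.40 to 30.3 CPM) of the set. Over the groups on SCD, macrophage markers summed to 107 to 154 CPM in wildtype and 73.2 to 78.6 CPM in R192H mice and lymphocyte markers to 14.6 to 40.2 and 5.45 to 8.01 CPM; the part of these cells' RNA was not tested. The 4 members called on HFD had log2 differences on SCD of −0.09 (*Prdx4*), −0.12 (*Gpx2*), −0.07 (*Txn1*) and 0.27 (*Nqo1*), with an adjusted p of 1 each.

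Whether the genotype difference itself changed with diet was tested as an interaction, the difference on HFD minus that on SCD. With edgeR no member passed, beside 0.131% of all genes, and at an unadjusted p under 0.05 there were 8 members and 11.2% of all genes. *Prdx4* came nearest, at 1.28 ± 0.28 (log2, SE, adjusted p = 0.0899), followed by *Nqo1* at −1.35 ± 0.31 (0.112), *Gpx2* at 1.28 ± 0.34 (0.164) and *Txn1* at 0.82 ± 0.22 (0.171). DESeq2 called 3 members, against 1.56% of all genes. They were *Prdx4* (adjusted p = 0.00386), *Gpx2* (0.0323) and *Nqo1* (0.0206), so the interaction of these 3 depends on the tool. Without both mice carrying intestinal transcripts the edgeR values were 1.09 for *Prdx4* (adjusted p = 0.424), −1.3 for *Nqo1* (0.352), 1.24 for *Gpx2* (0.441) and 1 for *Txn1* (0.37). With the acinar covariate they were 0.76, −1.12, 1.26 and 0.93 (adjusted p = 0.817 each). All 33 acinar, 13 macrophage, 9 stromal, 7 lymphocyte and 5 erythroid markers tested had a positive interaction. Those of delta cells were below 0, the other lists were mixed and no marker was called. The part of these cells' RNA was not tested.

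HFD against SCD within wildtype islets gave no called member with edgeR or DESeq2 (0.371% and 2.94% of all genes were called). Of the 3 members with an unadjusted p under 0.05, where 15.2% of all genes had one, *Gpx2* was higher on HFD by 0.68 ± 0.24 (log2, SE, n = 3 and 3, adjusted p = 0.211). It stood at 8.09, 5.69 and 6.88 CPM on SCD and, as given above, at 9.09 CPM or more on HFD. The microsomal transferase *Mgst1* had −1.38 (adjusted p = 0.161), with wildtype mouse 2 on SCD highest at 4.83 CPM; without that mouse it was −0.73. The same mouse had the highest summed stromal markers, 411 CPM against 108 to 247 CPM in the other mice of the set. Immune markers moved with diet across the whole wildtype group. Macrophage markers summed to 107 to 154 CPM on SCD and 75.6 to 86 CPM on HFD, with 7 of 13 wholly lower on HFD and 1 called lower, and lymphocyte markers to 14.6 to 40.2 and 4.4 to 6.75 CPM, with 2 of 7 wholly lower and 1 called lower. Of the 9 stromal markers, 5 were wholly lower on HFD and none was called. The part of these cells' RNA was not tested. *Ftl1* had 0.39 (adjusted p = 0.285).

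Within R192H islets, 10 members were higher on HFD than on SCD and 1 was lower. Across all genes, 9.75% were called higher and 5.91% lower, since this comparison called 2996 genes in all. The median member stood at 0.27 and the median gene at −0.06. The R192H mice on HFD are the same in this comparison and in that with wildtype on HFD, so the values are set side by side and are not independent of each other.

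Of the 10 genes called higher, 8 belong to the listed glutathione peroxidases, peroxiredoxins and thioredoxin system; *Gstp1* and *Sqstm1* were the others. *Gpx2* had the highest log2 fold change of the 10, from 4.80, 6.69 and 7.60 CPM on SCD to 20.6, 20.3 and 33.0 CPM on HFD (1.96 ± 0.25, SE, n = 3 and 3, adjusted p = 0.000346). *Txn1* went from 24.1, 21.3 and 19.3 CPM to the 42.5 to 50.7 CPM given above (1.14 ± 0.16, adjusted p = 0.00064). *Prdx4* went from 17.7, 17.5 and 22.8 CPM to 32.9 CPM or more (1.25 ± 0.20, adjusted p = 0.00141). For all of them, no SCD mouse reached any HFD mouse.

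*Txn2*, the mitochondrial thioredoxin, was at 8.36, 7.63 and 9.16 CPM on SCD and at 15.7, 20.3 and 18.0 CPM on HFD (1.10 ± 0.20, adjusted p = 0.00256). *Gpx1*, the main cytosolic glutathione peroxidase, was at 45.4, 44.2 and 45.6 CPM on SCD and 70.3, 84.5 and 98.5 CPM on HFD (0.91 ± 0.19, adjusted p = 0.00565). *Srxn1* was at 42.6, 38.1 and 26.6 CPM and then at 56.6, 57.8 and 60.8 CPM (0.71 ± 0.16, adjusted p = 0.0102). Mitochondrial and cytosolic members both rose, and *Srxn1* was the only called member with the response element core in its window, shown above.

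*Prdx5*, a peroxiredoxin of mitochondria and peroxisomes, was at 32.1, 29.2 and 26.6 CPM on SCD and 44.9, 49.8 and 44.6 CPM on HFD (0.66 ± 0.14, adjusted p = 0.00679). *Prdx2*, a cytosolic peroxiredoxin, was at 72.3, 64.4 and 64.6 CPM and then at 92.2, 108 and 98.9 CPM (0.57 ± 0.15, adjusted p = 0.0176). Their groups did not overlap either. *Gstp1*, a transferase that conjugates glutathione to electrophiles, was at 29.9, 24.4 and 16.5 CPM and then at 43.0, 38.5 and 35.3 CPM (0.72 ± 0.19, adjusted p = 0.0191). *Sqstm1* was at 204, 198 and 175 CPM and then at 259, 289 and 278 CPM (0.52 ± 0.13, adjusted p = 0.0147). These last values lie close to the fold threshold, and *Prdx1* (0.43, adjusted p = 0.0472) and *Keap1* (0.48, 0.0491) passed the adjusted p while staying under it.

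*Nqo1* was the 1 member called lower, from 5.54, 7.74 and 6.53 CPM on SCD to 2.00, 2.85 and 2.84 CPM on HFD (−1.36 ± 0.23, SE, n = 3 and 3, adjusted p = 0.00179). In wildtype islets it was at 4.78 to 6.09 CPM on SCD and 4.56 to 6.93 CPM on HFD. *Nfe2l2* did not pass between the diets in R192H islets (−0.32, adjusted p = 0.13).

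The count of members called was 8 to 11 when any of the 6 mice was left out, while the count over all genes fell from 2996 to between 1706 and 2248. It was 9, without *Sqstm1* and *Prdx2*, when both mice carrying intestinal transcripts were left out, beside 1326 of all genes. *Prdx2* lost its call without R192H mouse 2 or 3 on either diet, *Gstp1* without mouse 3 on SCD or mouse 1 or 2 on HFD, and *Sqstm1* without mouse 3 on SCD or mouse 2 on HFD; their adjusted p-values without those mice were at most 0.078, 0.0696 and 0.0628. Acinar markers summed to 23700 to 30000 CPM in R192H mice on SCD and 58100 CPM or more on HFD, with 30 of the 33 called higher. Beta cell markers summed to 50000 to 52100 CPM on SCD and 99100 to 110000 CPM on HFD (3 of 9 called higher and 1 lower) and duct markers to 168 to 172 and 215 to 226 CPM (1 of 8 called higher). Of the 9 stromal markers 4 were wholly lower on HFD and none was called, with a median log2 difference of −0.9. All 5 erythroid markers were higher on average, 3 wholly and 1 called, and 1 of 8 endothelial and 1 of 7 lymphocyte markers were called higher and 1 of 7 intestinal markers lower. The part of these cells' RNA was not tested. With the acinar covariate no member and 59 of all genes were called. The log2 difference of *Gpx2* was then 1.93 (adjusted p = 0.0863), that of *Txn1* 1.27 (0.093) and that of *Prdx4* 0.68 (0.344). The covariate, as mean log2 CPM, was 7.4 to 7.74 in R192H mice on SCD and 8.74 to 10.03 on HFD. It did not overlap between the diets, so this fit cannot separate acinar RNA from diet.

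**Figure D4:**
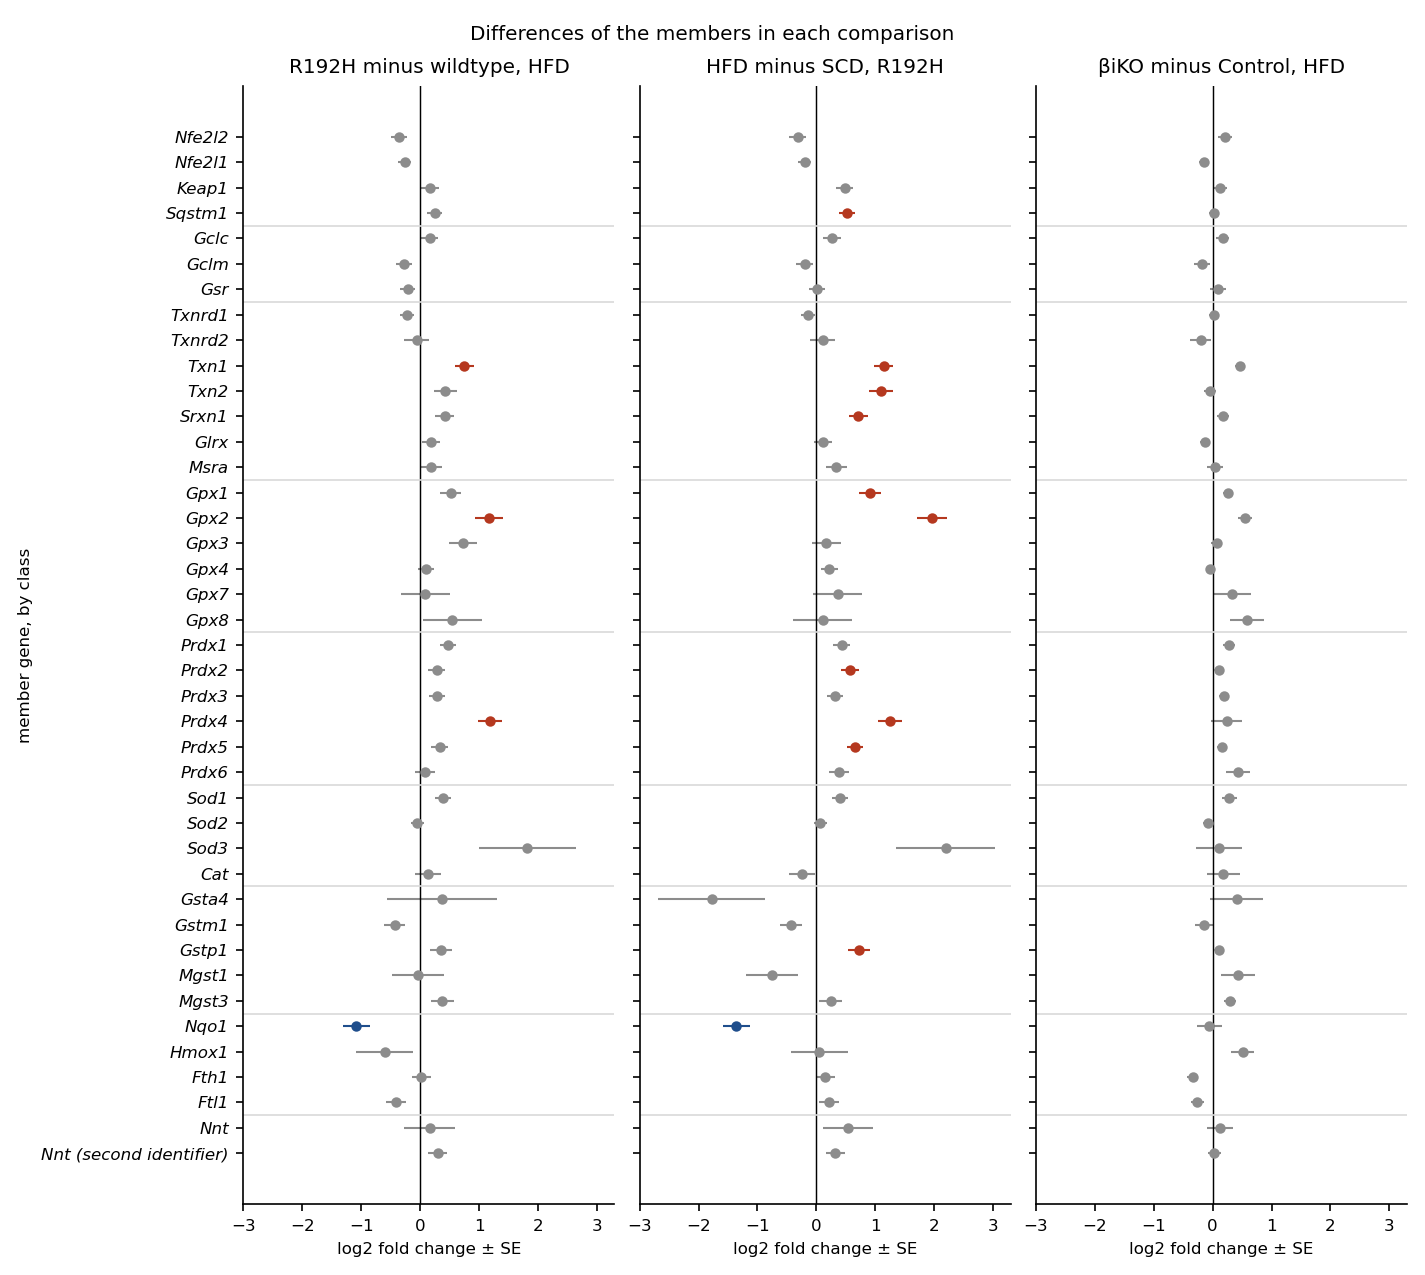
Log2 fold change (points) with its SE (bars) of the 41 member identifiers, grouped by class and parted by grey lines, for R192H minus wildtype on HFD, HFD minus SCD in R192H, and βiKO minus Control on HFD; red was called higher, blue lower, grey not called. The first 2 panels share the R192H mice on HFD; they hold 3 and 10 red points and 1 blue point each, and the βiKO panel, which lies within −0.34 to 0.59, holds none.

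The βiKO islets offer a comparison in other mice, between 3 βiKO and 2 control mice on HFD. No member was called by edgeR, where 0.0893% of all 20167 genes were. An unadjusted p under 0.05 was found for 9 members, 7 above 0 and 2 below, and for 12.8% of all genes. DESeq2 called 1 member, *Gpx2* (adjusted p = 0.0118), and 2.04% of all genes. *Txn1* (adjusted p = 0.00232) and *Fth1* (0.0311) passed the adjusted p of DESeq2 but not the fold threshold, at log2 differences of 0.46 and −0.34. The βiKO mice lay wholly above the controls for 13 members and wholly below for 5, with 15.9% and 16.7% of all genes doing so. The median member was at 0.12 and the median gene at 0.01. Without the acinar-rich mouse of each group the median member was at 0.07 and the median gene at 0. The 2 βiKO mice then lay wholly above the 1 control left for 19 members and below for 9, beside 33.4% and 36.4% of all genes. The summed markers did not overlap between the groups for duct (327 to 331 CPM in controls, 383 to 462 CPM in βiKO mice), endothelial (270 to 274 and 293 to 345 CPM), stromal (280 to 293 and 297 to 417 CPM) and alpha cells (10800 to 13900 and 14000 to 14200 CPM), higher in βiKO mice, or for intestinal markers (155 to 161 and 142 to 144 CPM), lower in βiKO mice. Of the 9 beta cell markers, 5 were wholly lower and 2 wholly higher in βiKO mice (median log2 difference −0.37), and their mean log2 CPM did not overlap, at 10.42 to 10.57 in the controls and 10.27 to 10.32 in βiKO mice. No marker of these lists was called, and their part was not tested.

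*Txn1* and *Gpx2* had the lowest p-values of the members. *Txn1* was at 43.2 and 46.4 CPM in the controls and at 65.6, 59.2 and 60.8 CPM in βiKO mice, a log2 difference of 0.46 ± 0.08 (SE, n = 2 and 3, adjusted p = 0.146). *Gpx2* was at 19.7 and 22.2 CPM and at 34.4, 27.7 and 29.9 CPM, 0.55 ± 0.12 (SE, n = 2 and 3, adjusted p = 0.198). Every βiKO mouse was above both controls for both genes, including the acinar-rich mouse of either group. Without the acinar-rich mouse of each group, which leaves 1 control whose spread is taken from the βiKO mice, both log2 differences were 0.35 (adjusted p = 0.844 each). *Prdx4* overlapped between the groups, at 59.7 and 37.8 CPM in the controls and 77.3, 47.9 and 47.7 CPM in βiKO mice, and within each group the acinar-rich mouse was highest. *Nqo1* overlapped as well, at 8.77 and 5.83 CPM and at 7.52, 7.26 and 6.16 CPM.

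The ferritin genes leaned lower in βiKO islets. *Fth1*, the heavy chain that oxidizes and stores iron, was at 176 and 156 CPM in the controls and at 126, 139 and 130 CPM in βiKO mice, and *Ftl1* at 1100 and 1010 CPM and at 811, 892 and 937 CPM. The groups did not overlap for either, and the log2 differences of −0.34 ± 0.09 and −0.26 ± 0.11 did not pass with edgeR (SE, n = 2 and 3, adjusted p = 0.255 and 0.378). *Mgst3*, a microsomal glutathione transferase and peroxidase, was at 14.6 and 15.5 CPM and at 19.0, 18.9 and 17.5 CPM (0.29 ± 0.10, adjusted p = 0.319). All 6 peroxiredoxins had positive values, from 0.10 to 0.43.

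The remaining members named above stood as follows in the βiKO set. *Gpx1* was at 96.6 and 97.7 CPM in the controls and at 123, 115 and 111 CPM in βiKO mice (0.26, adjusted p = 0.286), without overlap. *Srxn1* (50.4 and 60.3 CPM against 67.6, 60.5 and 60.5 CPM), *Prdx5* (61.2 and 64.0 CPM against 71.1, 64.6 and 72.1 CPM) and *Prdx2* (154 and 155 CPM against 170, 159 and 168 CPM) were also higher in every βiKO mouse. *Txn2* (22.2 and 24.9 CPM against 23.0, 22.5 and 23.0 CPM), *Sqstm1* (366 and 359 CPM against 361, 362 and 383 CPM) and *Gstp1* (52.9 and 48.6 CPM against 55.2, 48.7 and 59.2 CPM) overlapped. Of the regulators and synthesis genes, *Nfe2l2* was at 29.5 and 29.4 CPM and at 29.0, 35.7 and 37.5 CPM, and *Gclm* at 47.2 and 40.6 CPM and at 40.1, 43.4 and 32.6 CPM. *Sod1* was at 141 and 149 CPM in the controls and 165, 153 and 208 CPM in βiKO mice. Its highest value came from βiKO mouse 3, which also had the most lymphocyte (89.1 CPM against 14.0 to 21.9 CPM in the other mice), erythroid (531 against 112 to 214 CPM) and macrophage marker RNA (233 against 159 to 181 CPM); their part was not tested.

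The R192H and βiKO comparisons on HFD share no mouse. The difference had the same direction in both for 32 of 41 members (78%) and for 65.5% of the 18590 genes tested in both. Of the 16 members with an unadjusted p under 0.05 in R192H against wildtype, 14 (87.5%) had the same direction in βiKO, beside 82.6% of all genes with such a p. Both counts were lower without the 2 mice carrying intestinal transcripts and the 2 acinar-rich mice of the βiKO set. The direction was then shared by 28 of 41 members (68.3%, beside 63.5% of all genes), and by 8 of the 13 members with such a p (61.5%, beside 77.2% of all genes).

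A further 118 genes of the same pathways that are not among the 40 were counted in the same fits, 109 of them tested in the R192H set and 110 in the βiKO set. They cover NRF2 partners and repressors, further NRF2 targets, further glutathione transferases, thiol enzymes, NADPH supply, selenoproteins and oxidant producers. In R192H against wildtype on HFD, edgeR called 3 higher (*Gsto2*, *Me3* and *Selenom*; 2.75% beside 1.46% of all genes) and 1 lower (*Mt1*; 0.917% beside 0.82%). It called *Mt1* alone in the interaction and none on SCD, between diets in wildtype or in βiKO. At an unadjusted p under 0.05 there were 9 genes on SCD (8.26% beside 3.29% of all genes), 18 between diets in wildtype (16.5% beside 15.2%) and 24 in βiKO (21.8% beside 12.8%). DESeq2 called 10 higher and 3 lower on HFD (9.35% and 2.8% of the genes with an adjusted p, beside 3.62% and 1.78% of all genes) and 0 on SCD. It called *Gsto2* and *Mt1* in the interaction (1.83% beside 1.56%), 2 genes between diets in wildtype (1.83% beside 2.94%) and *Gsto2*, *Me3* and *Mt1* in βiKO (3.12% beside 2.04%), shares near those of all genes.

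*Gsto2*, an omega-class glutathione transferase that recycles ascorbate, was at 2.13, 1.98 and 1.98 CPM in wildtype and at 6.73, 10.9 and 6.29 CPM in R192H mice on HFD, 1.97 ± 0.26 higher (log2, SE, n = 3 and 3, adjusted p = 0.00382). In the βiKO set it was at 4.94 and 6.56 CPM in the controls and at 15.4, 14.1 and 13.5 CPM in βiKO mice (1.31 ± 0.16, SE, n = 2 and 3, adjusted p = 0.0541). The genotypes did not overlap in either set, and the βiKO difference missed the threshold by edgeR as reported here. It passed with DESeq2 and, with edgeR, without a filter on low counts (adjusted p = 2.24e-10), with at least 10 counts in every mouse (0.0479), with the replicate block (0.019) and with the macrophage covariate (0.0494), and did not in the other 10 of 15 alternatives, the omission of any 1 mouse among them (0.0663 to 0.441). Without both mice carrying intestinal transcripts the R192H difference was 2.09 (adjusted p = 0.0146), with the acinar covariate 2.19 (0.205), and in the βiKO set without the 2 acinar-rich mice 1.04 (0.611).

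*Me3*, the mitochondrial malic enzyme that yields NADPH, was at 1.28, 2.46 and 1.59 CPM in wildtype and at 5.76, 5.25 and 6.29 CPM in R192H mice on HFD (1.71 ± 0.34, SE, n = 3 and 3, adjusted p = 0.0237). In the βiKO set its levels were 6.06 and 4.57 CPM in the controls and 11.6, 10 and 8.18 CPM in βiKO mice (0.91, adjusted p = 0.209). *Selenom*, a thioredoxin-like selenoprotein of the endoplasmic reticulum, went from 36.4, 44.1 and 48.2 CPM to 61.3, 68.7 and 62.6 CPM (0.58 ± 0.13, adjusted p = 0.0414). *Me3* kept its call without both mice carrying intestinal transcripts (adjusted p = 0.0475) and lost it with the acinar covariate (0.707) and when wildtype mouse 1 or 3 or any of the R192H mice was left out (0.0721 to 0.113). *Selenom* lost its call in each of these settings and when any of the 6 mice was left out (0.0654 to 0.163).

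*Mt1*, a metallothionein that binds zinc and scavenges oxidants, fell like *Nqo1*. It was at 53.5, 50.9 and 66.5 CPM in wildtype and at 24.0, 28.9 and 25.9 CPM in R192H mice on HFD (−1.12 ± 0.14, SE, n = 3 and 3, adjusted p = 0.00243). On SCD the genotypes overlapped, at 63.6 to 79.3 CPM in wildtype and 70.3 to 73.2 CPM in R192H mice, and the interaction passed (−1.17 ± 0.19, adjusted p = 0.0421). In the βiKO set *Mt1* was at 131 and 89.2 CPM in the controls and at 59.1, 77.8 and 81.0 CPM in βiKO mice (−0.60, adjusted p = 0.282), and −0.19 without the 2 acinar-rich mice. On HFD the difference was −1.04 without both mice carrying intestinal transcripts (adjusted p = 0.0281) and −0.84 with the acinar covariate (0.469). The interaction lost its call in 15 of 22 alternatives, among them the acinar, intestinal and macrophage covariates, both mice with intestinal transcripts left out (0.264), and any single mouse other than mouse 2 of either wildtype group.

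**Figure D5:**
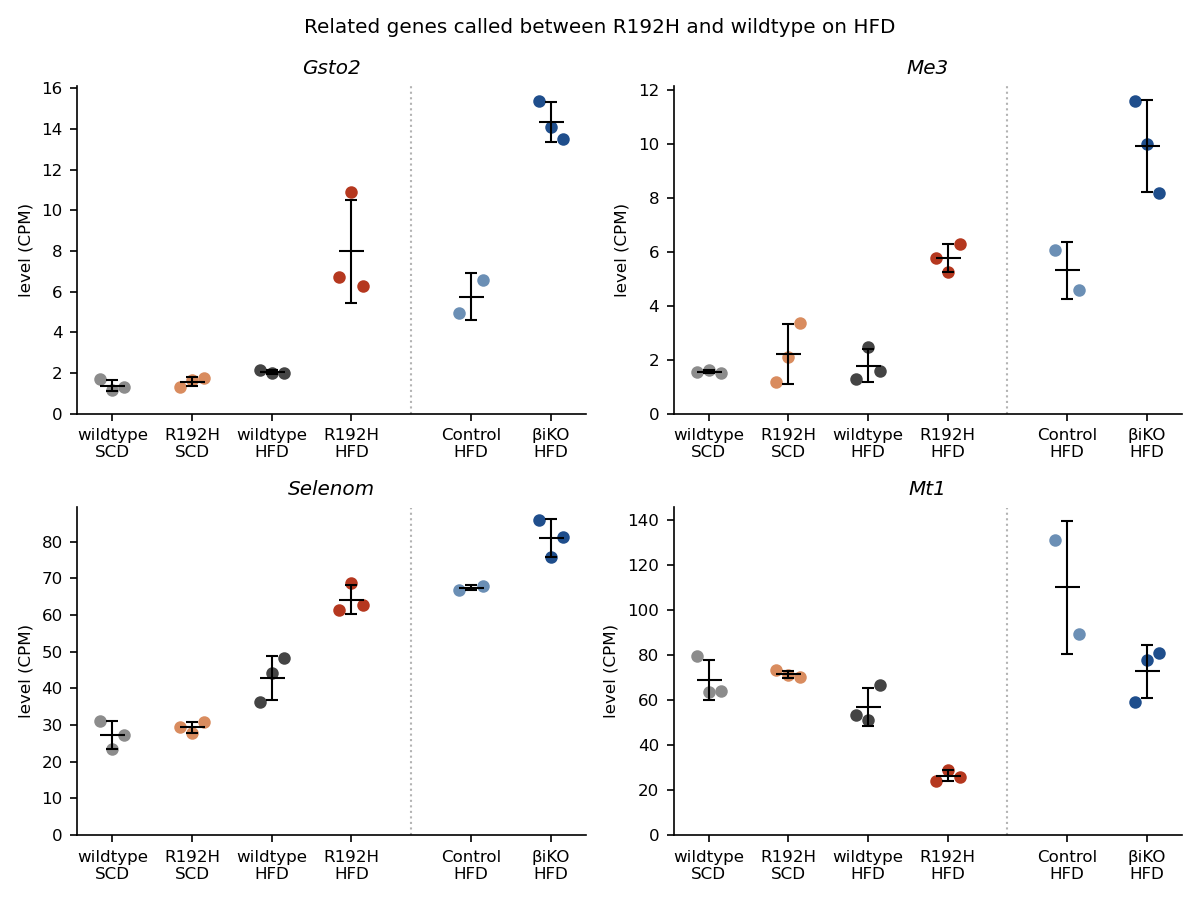
Level (CPM, linear axis from 0) of the 4 related genes called between R192H and wildtype on HFD in each mouse (points), with the mean and SD of each group (black); the dotted line parts the 2 separately normalized sets. *Gsto2* sits at 6.29 to 10.9 CPM in R192H mice on HFD against 1.15 to 2.13 CPM in the other mice of the set, and *Mt1* at 24.0 to 28.9 CPM against 50.9 to 79.3 CPM.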

How the data were processed

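Per the labels and the study's methods, the authors made stranded total RNA libraries from isolated islets, aligned paired-end reads with STAR 2.7.1 to mm10 and deposited RSEM 1.3.3 expected counts per gene, in 1 table for the R192H set and 1 for the βiKO set. Here the expected counts were rounded, named through GENCODE and RefSeq tables (65.8% and 66.7% of identifiers matched a symbol), filtered (filterByExpr, minimum count 10), scaled by TMM and tested with edgeR 4.0.16 (R 4.3.3) by the quasi-likelihood test, with 1 coefficient per group and Benjamini-Hochberg adjustment over all genes tested. The study used DESeq2; DESeq2 1.42.0 was run as an alternative. The scripts were tested on simulated data. Called genes had an adjusted p under 0.05 and a log2 fold change beyond 0.5. Levels are not comparable between the tables. The labels call the samples biological replicates, and the sources do not say whether a sample pooled several animals. The p-values measure the spread between these samples. The members and lists were chosen with earlier results of these data known. Per-mouse values are given for members called in at least 1 of 6 comparisons and for the member of each class with the lowest p in either HFD genotype comparison.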

Additional observations from a re-analysis of the deposited data

How the results depend on the processing

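Each of the 6 counts of called members was recomputed under other size factors, filters, tools, covariates and sets of mice. In R192H against wildtype on HFD the count of 4 became 2 with the intestinal marker covariate, 2 with the replicate block, 0 with the acinar covariate, 0 without both mice carrying intestinal transcripts (an alternative chosen after seeing the data) and 0 to 3 without 1 mouse. The count over all genes went from 437 to 169, 147, 0 and 79 in these settings, and to between 93 and 498 without 1 mouse. Without a filter on low counts it was 1 on SCD, 4 for the interaction, 2 for HFD against SCD in wildtype and 1 for βiKO, each from 0, while the calls over all genes went from 0 to 261, 25 to 708, 71 to 924 and 18 to 697. DESeq2 gave 3 for the interaction and 1 for βiKO, with 311 and 250 of all genes. The interaction had 0 or 1 without 1 mouse. HFD against SCD in R192H fell from 11 to 0 with the acinar covariate, and its count over all genes from 2996 to 59. That covariate did not overlap between the groups in this comparison or in R192H against wildtype on HFD. Neither comparison can then separate acinar RNA from the group. The other alternatives kept each count within 1.5 times, and no log2 fold change that was recomputed (members called or with an unadjusted p under 0.05, and 4 related genes) changed sign. Why these counts moved was not tested.

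The labels do not say whether the replicate numbers mark shared litters or days. The deviations of same-numbered mice had correlations of 0.19, 0.11 and −0.05 in the comparison on HFD. In the other comparisons they were −0.3 to 0.17. With the replicate block the count on HFD was 2 instead of 4, and that over all genes 147 instead of 437. *Txn1* was then at an adjusted p of 0.0784 and *Gpx2* at 0.0567, and the member counts of the other 5 comparisons did not move.

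With 3 mice a group, and 2 controls in the βiKO set, small differences of a member cannot be told from 0. Members under 1 CPM, such as *Sod3* and *Gsta4*, rest on few counts: 3 counts correspond to 0.0703 to 0.124 CPM in the R192H set.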

Other observations

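In R192H islets, 22 of the 109 related genes tested were called higher on HFD than on SCD (20.2%, beside 9.75% of all genes). Lower calls were 8 (7.34%, beside 5.91% of all genes), a share near that of all genes. Without both mice carrying intestinal transcripts these were 11 and 4, beside 4.75% and 1.87% of all genes. The genes named next are examples picked from the calls with all mice. Their values in single mice and under the alternatives were not examined. Of the 18 listed selenoproteins and genes of selenium use, 6 were called higher and none lower. *Selenos* and *Selenok*, of the machinery that exports misfolded proteins from the endoplasmic reticulum, had log2 fold changes of 0.77 and 0.79 (adjusted p = 0.00833 and 0.00885). *Gsto1*, the neighbour of *Gsto2* in the omega class, had 1.40 (0.00195). The lower genes included *Mt2* (−0.93, 0.0338), the iron exporter *Slc40a1* (−0.86, 0.0136) and *Cul3*, the scaffold of the ligase that degrades NRF2 (−0.60, 0.0118). Acinar markers moved with this comparison, as given above.

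*Gsta4*, an alpha-class transferase that conjugates lipid aldehydes, was at 4.22 CPM in R192H mouse 1 on SCD and at 0.158 to 0.805 CPM in the other 11 mice of the set. That mouse also had the most intestinal transcripts. The part of intestinal RNA in this value was not tested.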
